A study of Arabidopsis thaliana with 42 samples.

Results

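The genes described are the 9 clade A type 2C protein phosphatases (PP2Cs) of Arabidopsis, ABI1, ABI2, HAB1, HAB2, AHG1, AHG3, HAI1, HAI2 and HAI3, chosen as a gene family by their locus identifiers among the 27050 genes of the RNA-seq data. The mutant leaves came from rpn12a-236, an EMS line in the Col-0 background that was backcrossed to the wild type and carries a premature stop codon near the end of RPN12a, which encodes a lid subunit of the proteasome. They were taken in the light at 0 d, and as individually darkened leaves (IDLs, single leaves covered on a plant that stays in the light) after 6 h, 1 d, 3 d and 6 d. Wild-type (WT) Col-0 leaves were taken as IDLs at the same times, in the light at 6 h, 1 d, 3 d and 6 d, and in the light at 0 d. This gave 14 conditions of 3 replicates, 42 libraries in all, each made from pooled leaf blades of independent plants grown in short days. Leaves were cut at 8 am, except at 6 h, which was cut at 2 pm. The samples held only 1 mutant line, and no light leaves of it after 0 d were among them.

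Clade A PP2Cs are the brake of abscisic acid (ABA) signalling. Without ABA they dephosphorylate and silence SnRK2 kinases, and when ABA is bound by receptors of the PYR/PYL family, the receptor docks on the phosphatase and blocks it, so that the kinases can phosphorylate bZIP transcription factors and ion channels. Transcripts of most clade A genes are themselves induced by ABA, which sets up a negative feedback, and ABA is a known promoter of leaf senescence. ABI1 and ABI2 are the members in which dominant mutations that make plants insensitive to ABA were first found, HAB1 and HAB2 are their closest relatives, AHG1 and AHG3 (also called PP2CA) were found in screens for germination that is hypersensitive to ABA, and HAI1, HAI2 and HAI3 are named as highly ABA-induced. HAI1 is also known as SAG113, a senescence-associated gene that acts on stomatal closure and water loss in senescing leaves.

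In the TAIR10.1 annotation of RefSeq the genes lie on all 5 chromosomes. ABI1 is AT4G26080 at chr4:13219915-13222376 on the minus strand, ABI2 is AT5G57050 at chr5:23087122-23089631, HAB1 is AT1G72770 at chr1:27389948-27393327 and HAB2 is AT1G17550 at chr1:6034270-6037398. AHG1 is AT5G51760 at chr5:21026805-21029188 and AHG3 is AT3G11410 at chr3:3583782-3585850 on the minus strand. HAI1 is AT5G59220 at chr5:23894404-23896939 and HAI2 is AT1G07430 at chr1:2280746-2282828, both on the minus strand, and HAI3 is AT2G29380 at chr2:12608675-12610350. Their longest transcripts have 3 or 4 exons. HAB1 and HAB2 share 5 stretches of 31 bases with another annotated gene, of 2850 and 2639 such stretches, and the other 7 members share 0, so that few of their reads could fit a second gene equally well. The end of ABI1 overlaps a neighbour on the other strand by 22 bases.

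The 300 bases before the annotated start were searched on both strands for ACGTG. This is the core of the ABA-responsive element that bZIP factors of this pathway bind. Capitals mark ACGTG or its reverse complement CACGT. Overlapping matches were counted as 1. HAI2 and AHG3 are shown as the windows with most matches, HAI1 as a window with none and ABI1 as a window with 1, each read 5′ to 3′ on the strand of its gene.
HAI2, chr1:2282829-2283128, minus strand: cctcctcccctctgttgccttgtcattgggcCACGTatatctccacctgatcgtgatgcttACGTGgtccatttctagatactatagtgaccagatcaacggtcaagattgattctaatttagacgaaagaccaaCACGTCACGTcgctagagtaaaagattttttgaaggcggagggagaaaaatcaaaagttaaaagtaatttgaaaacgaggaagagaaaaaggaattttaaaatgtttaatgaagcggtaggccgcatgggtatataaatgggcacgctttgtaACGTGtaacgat
AHG3, chr3:3585851-3586150, minus strand: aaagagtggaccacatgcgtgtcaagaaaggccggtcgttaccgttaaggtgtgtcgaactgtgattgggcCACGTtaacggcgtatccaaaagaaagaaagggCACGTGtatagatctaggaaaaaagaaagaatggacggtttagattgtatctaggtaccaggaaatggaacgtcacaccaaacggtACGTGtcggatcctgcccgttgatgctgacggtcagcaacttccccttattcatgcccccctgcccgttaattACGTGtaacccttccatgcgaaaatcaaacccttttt
HAI1, chr5:23896940-23897239, minus strand: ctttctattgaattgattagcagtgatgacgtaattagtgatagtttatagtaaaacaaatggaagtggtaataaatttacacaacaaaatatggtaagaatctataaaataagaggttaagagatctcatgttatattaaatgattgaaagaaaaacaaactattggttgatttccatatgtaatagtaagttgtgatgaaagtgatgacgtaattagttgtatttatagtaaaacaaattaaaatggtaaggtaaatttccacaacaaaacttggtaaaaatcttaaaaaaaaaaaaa
ABI1, chr4:13222377-13222676, minus strand: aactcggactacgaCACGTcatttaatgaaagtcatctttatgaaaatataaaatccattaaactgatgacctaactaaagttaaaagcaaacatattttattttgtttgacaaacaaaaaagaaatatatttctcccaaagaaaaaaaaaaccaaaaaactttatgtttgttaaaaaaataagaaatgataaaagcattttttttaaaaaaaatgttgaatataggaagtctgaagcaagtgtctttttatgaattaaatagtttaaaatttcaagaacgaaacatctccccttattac
The window of HAI2 held 5 matches, the nearest ending 8 bases before the start, and that of AHG3 held 4, the nearest 33 bases before the start. HAB2 and HAI3 held 2 matches, ABI1, HAB1 and AHG1 held 1, and ABI2 and HAI1 held 0. The share of windows of the same length with at least 1 match was 25.6% of 27443 protein-coding genes. The 6-base palindrome CACGTG, which contains both orientations, was in the windows of AHG1 and AHG3 and in 7.09% of all windows. The longer form ACGTGGC was in those of AHG3 and HAI2 and in 3.72% of all windows, and ACGTGTC was in those of ABI1, HAB1 and AHG3 and in 4.05%. A match is a run of letters and not a measured binding site, and a link between matches and expression was not tested.

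The values are z-scores. The authors scaled each gene to a mean of 0 and an SD of 1 over the 42 libraries, so a difference of 1 is 1 SD of that gene, and neither levels, fold changes nor depth can be read from the values or compared between genes. In RNA from whole leaf blades, fewer cells of a type and less RNA per cell cannot be told apart. Of 14 markers of mesophyll, guard cells, phloem and epidermis, 13 were above a shared lowest value in all 42 libraries, and PDF1 of the epidermis was in 4. A gene was called at an adjusted p of at most 0.01 in limma, with Benjamini-Hochberg adjustment over all genes tested. At that threshold the fits of genotype and of darkening against 0 d tested 24407 genes over 30 libraries, and those of WT IDLs and WT light leaves tested 24166 genes over 27 libraries. Per library, 5215 to 6408 genes were at a lowest value shared by 2 or more libraries. WT light 6 h replicate 3 stood apart, with a mean correlation of 0.543 with its own group across genes, and rpn12a-236 6 d replicate 2 had the largest distance from its group among the IDLs. The RPN12a transcript was higher in rpn12a-236 than in WT at all 5 times, by 1.37 at 1 d to 2.11 at 0 d, which is no check of a point mutation.

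AHG1 was above its lowest value in 5 of 42 libraries and HAI3 in 13 of 42, while ABI1, ABI2, HAB1, HAB2, AHG3, HAI1 and HAI2 were above a shared lowest value in all 42. The 30-library fit therefore tested 8 of the 9 members, without AHG1, and the 27-library fit tested all 9. The 14 conditions accounted for 95.35% to 98.24% of the variance of the 7 fully measured members, against 43.51% for AHG1 and 43.92% for HAI3.

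**Figure D1:**
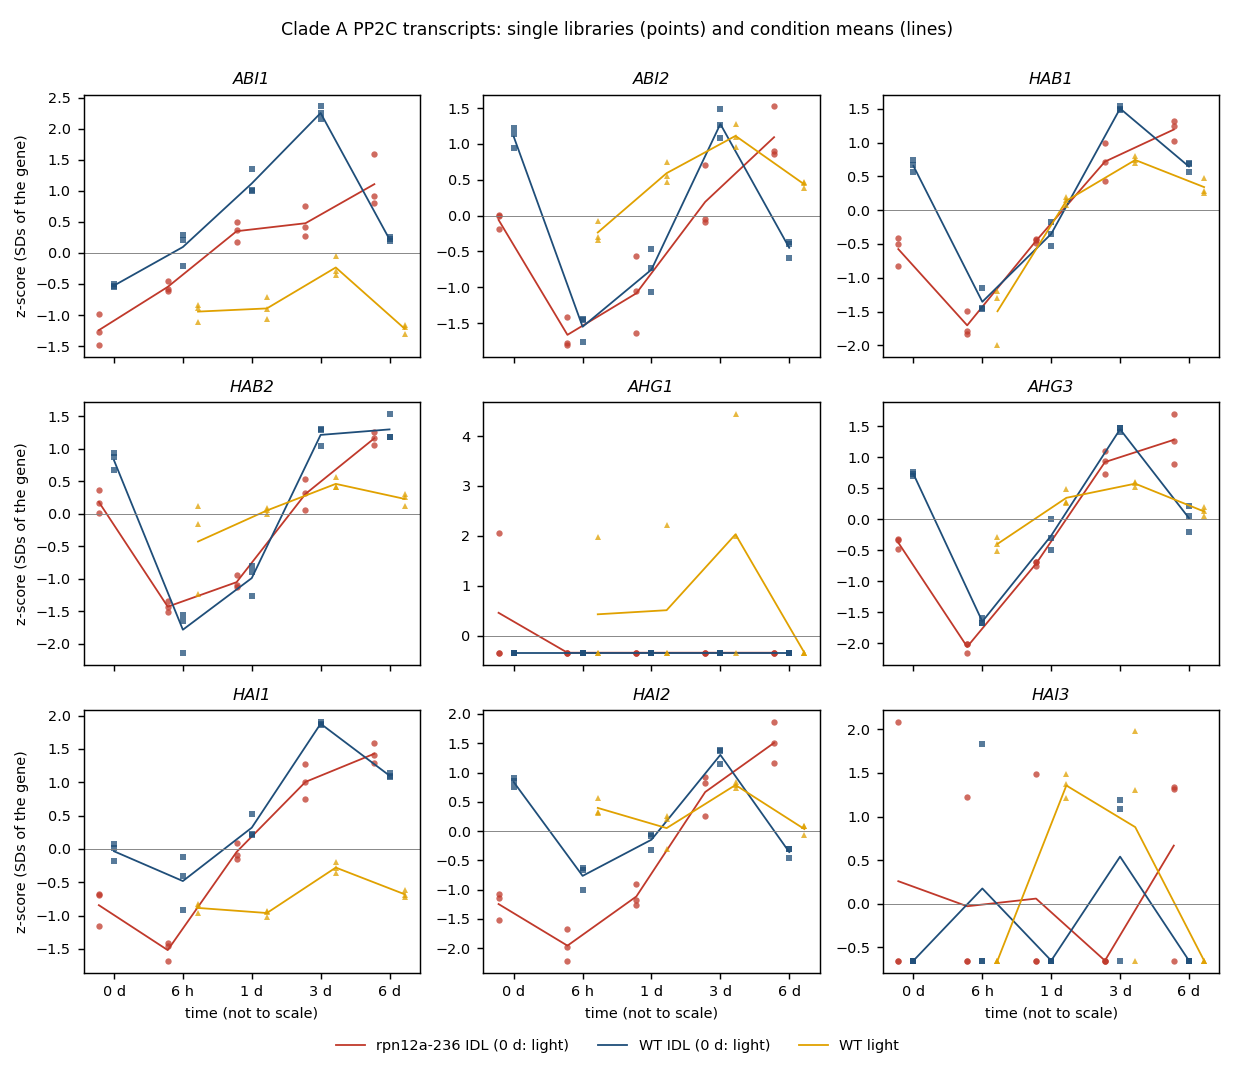
z-scores of the 9 genes (y axis, in SDs of each gene over 42 libraries) by time (x axis, not to scale), with 3 libraries per condition as points and condition means as lines, for rpn12a-236 IDLs (red), WT IDLs (blue) and WT light leaves (yellow), 0 d being in the light. In 6 of the 7 fully measured genes the WT line peaks at 3 d, and in all 7 the mutant line is highest at 6 d.

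Before darkening, 7 of the 8 members tested were lower in rpn12a-236 than in WT, and none was higher. Over all genes 17.2% were called, 7.93% higher and 9.26% lower, and the median difference was -0.96 over the 8 members and -0.029 over all genes. HAI2, one of the highly ABA-induced phosphatases, differed most in SDs of the gene. Its z-scores were -1.07, -1.14 and -1.52 in rpn12a-236 leaves, against 0.90, 0.86 and 0.75 in WT leaves. All 3 mutant libraries lay more than 1 SD of the gene below every WT library, a difference of -2.08 (95% CI -2.50 to -1.66, adjusted p = 5.99e-08). HAB1, which dephosphorylates the guard-cell kinase OST1, had -0.50, -0.41 and -0.82 in rpn12a-236 and 0.74, 0.66 and 0.56 in WT, a difference of -1.23 (adjusted p = 5.06e-06). ABI2 had 0.0036, -0.004 and -0.18 in rpn12a-236 and 1.22, 1.14 and 0.94 in WT, a difference of -1.16 (adjusted p = 0.00127). AHG3 had -0.31, -0.33 and -0.48 in rpn12a-236 and 0.70, 0.76 and 0.74 in WT, a difference of -1.11 (adjusted p = 4.21e-05). In these genes, too, the genotypes did not overlap. HAI3 was not called, at 0.91.

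The other 3 calls at 0 d were smaller. HAI1 had -0.70, -0.68 and -1.15 in rpn12a-236 and 0.067, 0.0081 and -0.18 in WT, a difference of -0.81 (adjusted p = 0.00225). ABI1 had -1.27, -0.99 and -1.48 in rpn12a-236 and -0.49, -0.55 and -0.53 in WT, a difference of -0.72 (adjusted p = 0.00759). HAB2 had 0.16, 0.37 and 0.0084 in rpn12a-236 and 0.93, 0.66 and 0.86 in WT, a difference of -0.64 (adjusted p = 0.00913). The genotypes did not overlap, but rpn12a-236 replicate 3 was the lowest mutant library of all 7 members. Leaving out any of the 3 WT libraries or rpn12a-236 replicate 1 or 3 ended the calls of ABI1 (adjusted p = 0.0208 to 0.0469) and HAB2 (0.0124 to 0.0478), and leaving out WT replicate 1 or 2 or rpn12a-236 replicate 3 ended that of HAI1 (0.0103 to 0.0208). The call of HAB2 was also lost with replicate number as a block (0.0126), without the filter on low values (0.0106), in a fit of all 42 libraries (0.0269) and with libraries centred on their medians (0.0119).

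After 6 h and 1 d of darkness fewer members were called between the genotypes. At 6 h these were 2 of 8, both lower, with 11.4% of all genes called (4.73% higher, 6.66% lower), and at 1 d 2 of 8, both lower, with 22.5% called (11.0% higher, 11.4% lower), so that at 1 d the share of members was near that of all genes. At 6 h HAI1 had -1.42, -1.68 and -1.46 in rpn12a-236 IDLs and -0.13, -0.92 and -0.40 in WT IDLs, a difference of -1.04 (adjusted p = 3.30e-04). HAI2 had -1.98, -2.21 and -1.68 in rpn12a-236 IDLs and -0.66, -1.01 and -0.63 in WT IDLs, a difference of -1.19 (adjusted p = 1.76e-04). Every mutant library of both genes lay below every WT library at 6 h. The members not called at 6 h were ABI1 at -0.64, ABI2 at -0.11, HAB1 at -0.35, HAB2 at 0.35, AHG3 at -0.41 and HAI3 at -0.20. ABI1, with an adjusted p of 0.0209, was called in a fit of all 42 libraries (0.00958) and without rpn12a-236 6 d replicate 2 (0.00683). At 1 d HAI2 was again lower, with -1.27, -0.90 and -1.17 in rpn12a-236 IDLs and -0.048, -0.076 and -0.32 in WT IDLs, a difference of -0.97 (adjusted p = 6.98e-04). ABI1 had 0.50, 0.37 and 0.18 in rpn12a-236 IDLs and 1.34, 1.00 and 1.01 in WT IDLs at 1 d, a difference of -0.77 (adjusted p = 0.00361), which was not called without WT replicate 1 or rpn12a-236 replicate 2 or 3 (adjusted p = 0.0105 to 0.0248). For ABI2, HAB1 and HAB2 the genotype differences at 1 d were -0.33 (95% CI -0.85 to 0.19), -0.10 (-0.44 to 0.23) and -0.062 (-0.43 to 0.31), and the libraries overlapped. AHG3, HAI1 and HAI3 were not called either, AHG3 at -0.45, HAI1 at -0.36 and HAI3 at 0.71.

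**Figure D2:**
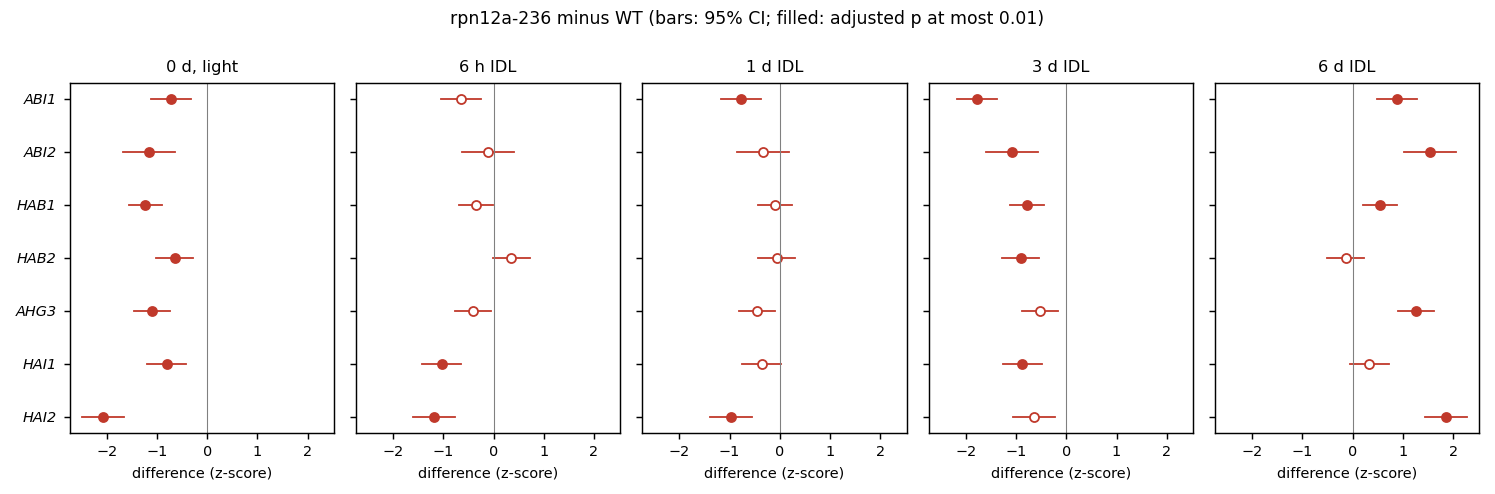
Difference between rpn12a-236 and WT (x axis, z-score) for the 7 fully measured genes (y axis) at 0 d in the light and at 4 times as IDLs, with 95% confidence intervals and filled points where the adjusted p was at most 0.01. Called points lie left of 0 from 0 d to 3 d and right of 0 at 6 d.

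At 3 d, 5 of 8 members were lower in rpn12a-236 IDLs than in WT IDLs and none was higher, with 27.6% of all genes called (13.4% higher, 14.2% lower). The median difference was -0.89 over the 8 members and 0 over all genes. In SDs of the gene ABI1 differed most. It had 0.42, 0.75 and 0.26 in rpn12a-236 IDLs and 2.36, 2.24 and 2.15 in WT IDLs, a difference of -1.77 (95% CI -2.18 to -1.37, adjusted p = 1.81e-07). The 3 WT libraries at 3 d were the highest of all 42 for ABI1. HAI1, the senescence-associated member, had 1.00, 1.27 and 0.75 in rpn12a-236 IDLs and 1.87, 1.90 and 1.87 in WT IDLs, a difference of -0.87 (adjusted p = 6.69e-04). HAB2 had 0.32, 0.54 and 0.055 in rpn12a-236 IDLs and 1.04, 1.304 and 1.29 in WT IDLs, a difference of -0.91 (adjusted p = 2.77e-04). HAB1 had 0.72, 1.00 and 0.44 in rpn12a-236 IDLs and 1.49, 1.53 and 1.48 in WT IDLs, a difference of -0.79 (adjusted p = 4.70e-04). In these genes the mutant libraries spread more widely than the WT libraries, and rpn12a-236 replicate 2 was the highest and replicate 3 the lowest of the mutant.

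ABI2 at 3 d had -0.092, 0.71 and -0.044 in rpn12a-236 IDLs and 1.49, 1.26 and 1.08 in WT IDLs, a difference of -1.09 (adjusted p = 0.00135). This call was lost without rpn12a-236 replicate 1 or 3 (adjusted p = 0.0112 and 0.0106). AHG3 at 3 d had 0.94, 1.10 and 0.72 in rpn12a-236 IDLs and 1.40, 1.48 and 1.47 in WT IDLs, -0.53 (adjusted p = 0.0177). HAI2 had 0.81, 0.93 and 0.26 in rpn12a-236 IDLs and 1.15, 1.37 and 1.38 in WT IDLs, -0.63 (adjusted p = 0.0155). These differences missed the threshold. They passed it in a fit of all 42 libraries (adjusted p = 0.00736 for AHG3 and 0.00857 for HAI2) and without rpn12a-236 6 d replicate 2 in the fit (0.00604 for AHG3 and 0.00953 for HAI2).

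At 6 d the direction was the opposite. Of 8 members, 5 were higher in rpn12a-236 IDLs than in WT IDLs and none was lower, with 35.1% of all genes called (17.2% higher, 17.9% lower). The median difference was 1.08 over the 8 members and 0 over all genes. HAI2 had 1.16, 1.86 and 1.50 in rpn12a-236 IDLs and -0.31, -0.45 and -0.31 in WT IDLs, a difference of 1.86 (95% CI 1.45 to 2.28, adjusted p = 9.05e-08). ABI2 had 0.86, 1.52 and 0.90 in rpn12a-236 IDLs and -0.39, -0.37 and -0.59 in WT IDLs, a difference of 1.54 (adjusted p = 2.24e-05). AHG3 had 0.90, 1.69 and 1.26 in rpn12a-236 IDLs and 0.21, 0.059 and -0.21 in WT IDLs, a difference of 1.26 (adjusted p = 2.34e-06). In each of the 3 genes the lowest mutant library was above the highest WT library, and rpn12a-236 replicate 2, the library with the largest distance from its group among the IDLs, was the highest. ABI1 had 0.81, 1.59 and 0.92 in rpn12a-236 IDLs and 0.22, 0.25 and 0.18 in WT IDLs, a difference of 0.89 (adjusted p = 6.02e-04). HAB1 had 1.02, 1.24 and 1.31 in rpn12a-236 IDLs and 0.56, 0.70 and 0.68 in WT IDLs, a difference of 0.55 (adjusted p = 0.00776), which was lost without any of the 3 WT libraries or rpn12a-236 replicate 2 or 3 (adjusted p = 0.0164 to 0.036) and with the replicate block (0.011). All other calls at 6 d held without rpn12a-236 replicate 2. The remaining members were not called. HAI1 had 1.29, 1.59 and 1.40 in rpn12a-236 IDLs and 1.08, 1.13 and 1.09 in WT IDLs, 0.33 (95% CI -0.057 to 0.71, adjusted p = 0.162), and HAB2 had 1.26, 1.05 and 1.17 in rpn12a-236 IDLs and 1.17, 1.19 and 1.53 in WT IDLs, -0.14 (95% CI -0.51 to 0.23, adjusted p = 0.577).

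In a fit on the 6 libraries of each time alone, which estimates each gene's spread from fewer libraries, 7 of the 21 genotype calls passed the threshold. These were HAB1, ABI2, AHG3 and HAI2 at 0 d, ABI1 at 3 d and ABI2 and HAI2 at 6 d, while every call at 6 h and 1 d was lost.

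Some markers of leaf cell types differed between the genotypes at the same times, and their part in the results on the PP2Cs was not tested. Between the genotypes 17.2% of all genes were called before darkening, 11.4% after 6 h as IDLs, 22.5% after 1 d, 27.6% after 3 d and 35.1% after 6 d. Of 6 guard cell markers, 2 were higher and 0 lower in rpn12a-236 at 0 d, 1 was higher at 6 h, 3 were higher at 1 d, 2 were higher and 1 lower at 3 d, and 2 were lower at 6 d, so that at 6 h and 6 d their share was near that of all genes. At 0 d, where 7 PP2Cs were lower, the guard cell kinase HT1 was higher by 1.91 (adjusted p = 0.00793) and the potassium channel KAT1 by 0.78 (adjusted p = 0.00273). At 6 d, where 5 PP2Cs were higher, the guard cell anion channel SLAC1 differed by -2.31 (adjusted p = 2.64e-04) and the transcription factor FAMA was called lower too. Of 3 mesophyll markers, 2 were higher in rpn12a-236 at 1 d, 3 d and 6 d, LHCB1.3 by 1.89 and RBCS1A by 1.04 at 6 d, and 0 were called at 0 d and 6 h in limma or had an unadjusted p under 0.05. Of 3 epidermis markers, ATML1 was higher at 3 d (0.86) and 6 d (0.78). Of 2 phloem markers, the proton pump AHA3 was higher at 1 d, by 1.43. The sucrose transporter SUC2 was higher in rpn12a-236 at 3 d, by 3.20, and lower at 6 d, with a difference of -1.71.

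Darkening of WT leaves gave a different order of members at each time. IDLs and light leaves of the same time and hour were compared. At 6 h, 1 of 9 members was higher and 4 were lower in WT IDLs than in WT light leaves, with 36.5% of all genes called (18.1% higher, 18.4% lower). ABI1 had 0.30, -0.21 and 0.20 in IDLs and -1.11, -0.88 and -0.84 in light leaves, a difference of 1.04 (adjusted p = 1.23e-05). AHG3 had -1.59, -1.68 and -1.68 in IDLs and -0.28, -0.39 and -0.52 in light leaves, a difference of -1.25 (adjusted p = 3.85e-07). ABI2 had -1.45, -1.44 and -1.76 in IDLs and -0.071, -0.29 and -0.34 in light leaves, a difference of -1.32 (adjusted p = 1.63e-06). ABI1 thus stood against the other called members. HAB2 had -2.14, -1.56 and -1.66 in IDLs and 0.11, -0.16 and -1.24 in light leaves, a difference of -1.36 (adjusted p = 1.14e-04), and HAI2 had -0.66, -1.01 and -0.63 in IDLs and 0.31, 0.32 and 0.56 in light leaves, a difference of -1.16 (adjusted p = 3.72e-06). WT light 6 h replicate 3, the library that stood apart, was low for HAB2. Without it the differences were 1.09 for ABI1, -1.31 for AHG3, -1.37 for ABI2, -1.76 for HAB2 and -1.08 for HAI2, all called. The members not called were HAB1 at 0.14, AHG1 at -0.77, HAI1 at 0.40 and HAI3 at 0.83. In a fit on the 6 libraries of this time alone, which include that library, the 5 calls were lost (adjusted p = 0.0119 to 0.0498).

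After 1 d, 2 members were higher and 4 lower in WT IDLs, with 40.9% of all genes called (18.7% higher, 22.3% lower). ABI1 had 1.34, 1.00 and 1.01 in IDLs and -0.71, -1.07 and -0.90 in light leaves, a difference of 2.01 (adjusted p = 1.09e-09). HAI1 had 0.53, 0.21 and 0.22 in IDLs and -1.01, -0.94 and -0.93 in light leaves, a difference of 1.28 (adjusted p = 8.02e-07). No light library of either gene reached the lowest IDL library. ABI2, with -0.73, -0.46 and -1.06 in IDLs and 0.75, 0.47 and 0.55 in light leaves, differed by -1.35 (adjusted p = 7.75e-07), and HAB2 by -1.04 (adjusted p = 0.00128). AHG3 differed by -0.61 (adjusted p = 0.00116), which was lost without WT IDL replicate 3 (adjusted p = 0.0111). HAI3 was at its lowest value in all 3 IDLs and had 1.49, 1.37 and 1.21 in light leaves. Its difference of -2.01 (adjusted p = 0.00631) was lost without any one of the 6 libraries (0.0141 to 0.0214). The members not called were HAB1 at -0.49, AHG1 at -0.85 and HAI2 at -0.20.

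**Figure D3:**
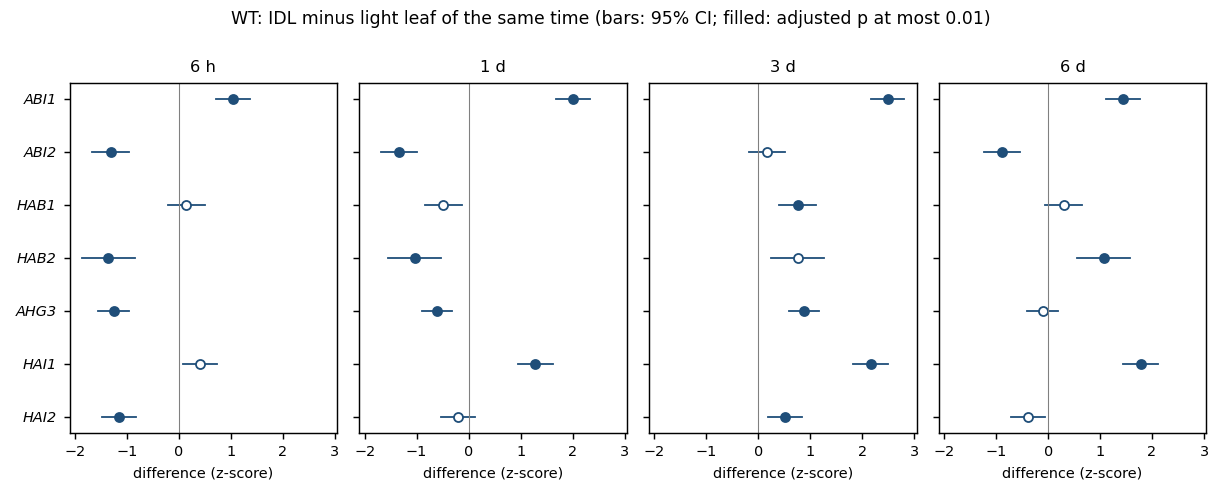
Difference of time-matched WT IDLs from WT light leaves (x axis, z-score) for the 7 fully measured genes (y axis), with 95% confidence intervals and filled points where the adjusted p was at most 0.01. ABI1 is right of 0 at all 4 times, ABI2 is left of 0 at 6 h, 1 d and 6 d, and no called point is left of 0 at 3 d.

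At 3 d, 5 of 9 members were higher in WT IDLs than in WT light leaves and none was lower, with 45.5% of all genes called (20.8% higher, 24.7% lower). Counted in both directions, the share of members was near that of all genes. ABI1 had 2.36, 2.24 and 2.15 in IDLs and -0.36, -0.052 and -0.30 in light leaves, a difference of 2.49 (95% CI 2.16 to 2.81, adjusted p = 4.91e-11). HAI1 had 1.87, 1.90 and 1.87 in IDLs and -0.37, -0.19 and -0.28 in light leaves, a difference of 2.16 (95% CI 1.82 to 2.49, adjusted p = 3.64e-10). These are the same members as at 1 d. In SDs of the gene, which say nothing of fold, their IDLs and light leaves were farther apart than those of the other fully measured members. AHG3 had 1.40, 1.48 and 1.47 in IDLs and 0.59, 0.61 and 0.53 in light leaves, a difference of 0.88 (adjusted p = 2.02e-05). HAB1 had 1.49, 1.53 and 1.48 in IDLs and 0.70, 0.79 and 0.74 in light leaves, a difference of 0.76 (adjusted p = 6.80e-04). HAI2 differed by 0.51 (adjusted p = 0.00853), which held only in the fit without WT IDL replicate 1 among the 6 that each left out one of its libraries (0.0177 to 0.0331 in the other 5), and neither with the replicate block (0.0123) nor in a fit of all 42 libraries (0.0225). HAB2 differed by 0.75 (adjusted p = 0.0131) and was called in fits of all 42 libraries (0.00385), of the 6 libraries alone (0.00518) and with libraries centred on their medians (0.00961). ABI2 was at 0.17 (95% CI -0.18 to 0.52) and HAI3 at -0.34. At 6 d, 3 members were higher in WT IDLs and 1 lower, with 47.2% of all genes called (22.1% higher, 25.0% lower). Here, too, the share of members was near that of all genes. HAI1 had 1.08, 1.13 and 1.09 in IDLs and -0.62, -0.73 and -0.69 in light leaves, a difference of 1.78 (adjusted p = 5.20e-09). ABI1 had 0.22, 0.25 and 0.18 in IDLs and -1.31, -1.16 and -1.20 in light leaves, a difference of 1.44 (adjusted p = 7.77e-08), and HAB2 differed by 1.07 (adjusted p = 8.33e-04). ABI2 had -0.39, -0.37 and -0.59 in IDLs and 0.38, 0.45 and 0.47 in light leaves, a difference of -0.88 (adjusted p = 1.13e-04). The members not called at 6 d were HAB1 at 0.30, AHG3 at -0.11 and HAI2 at -0.39, and AHG1 and HAI3 were at their lowest value in all 6 libraries. ABI1 was thus called higher at all 4 times and HAI1 at 3 of them, and ABI2 was called lower at 3 of them.

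The time courses were also set against each genotype's own 0 d leaves. The mutant comparisons share the mutant 0 d libraries, and the WT comparisons share the WT 0 d libraries. At 6 h, which was also cut at another hour of the day than 0 d, 6 of 8 members fell and 1 rose in rpn12a-236 (34.9% of all genes called, 16.5% higher and 18.4% lower), and 5 of 8 fell in WT (39.1%, 18.7% higher and 20.4% lower). Among the largest drops, HAB2 differed by -1.61 in rpn12a-236 and -2.61 in WT, ABI2 by -1.60 in rpn12a-236 and -2.65 in WT, and AHG3 by -1.68 in rpn12a-236 and -2.38 in WT. In the mutant, the calls of ABI1, HAI1 and HAI2 at 6 h were the smallest, at 0.70, -0.67 and -0.71. They were lost in 5, 4 and 4 of the 6 fits that each left out one library, with the highest adjusted p values at 0.035 without rpn12a-236 0 d replicate 3, 0.0275 without rpn12a-236 0 d replicate 2 and 0.0412 without rpn12a-236 6 h replicate 2. HAB1 differed by -1.13 in rpn12a-236 and -2.01 in WT. ABI1, the member that rose in the mutant, differed by 0.62 (adjusted p = 0.0102) in WT, and the interaction was 0.076 (adjusted p = 0.902). For rpn12a-236, without light leaves at 6 h, the hour and the darkening cannot be told apart in this contrast. In WT light leaves of that hour HAB1 differed from 0 d by -2.15 and ABI2 by -1.34. HAB2 differed there by -1.25 and AHG3 by -1.13. WT IDLs differed from those light leaves by 0.14 for HAB1 (not called) and -1.32 for ABI2. For HAB2 and AHG3 these differences were -1.36 and -1.25.

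At 1 d, 2 members were higher and 2 lower than at 0 d in rpn12a-236 (43.0% of all genes called, 20.2% higher and 22.8% lower), and 1 was higher and 5 lower in WT (41.7%, 19.7% higher and 22.0% lower). The share of members called in rpn12a-236 at 1 d was near that of all genes. ABI1 rose in both genotypes, by 1.59 in rpn12a-236 and 1.64 in WT. HAI2 differed by 0.13 in rpn12a-236 (95% CI -0.29 to 0.55, not called) and -0.98 (adjusted p = 2.41e-04) in WT. The mutant calls of ABI2, -1.02, and HAI1, 0.80, were lost without rpn12a-236 1 d replicate 3 (adjusted p = 0.0178) and without rpn12a-236 0 d replicate 3 (0.0102). At 3 d, 5 of 8 members rose in rpn12a-236 (46.7% of all genes called, 22.0% higher and 24.7% lower) and 4 of 8 in WT (46.8%, 22.2% higher and 24.6% lower), and none fell. Counted in both directions, the share of members called in WT at 3 d was near that of all genes. ABI1, HAB1, AHG3 and HAI1 rose in both, ABI1 by 1.72 in rpn12a-236 and 2.78 in WT, and HAI1 by 1.85 in rpn12a-236 and 1.91 in WT. HAI2 rose by 1.91 in rpn12a-236 and differed by 0.46 (adjusted p = 0.0547) in WT. The other differences from 0 d, in the order 1 d and 3 d, were in rpn12a-236 0.12 and 1.29 for HAB1, -1.23 and 0.12 for HAB2 and -0.34 and 1.299 for AHG3, and in WT -1.004 and 0.85 for HAB1, -1.81 and 0.39 for HAB2 and -0.99 and 0.72 for AHG3. ABI2 differed by 0.25 in rpn12a-236 at 3 d, and by 0.18 at 3 d and -1.85 at 1 d in WT, where HAI1 was at 0.35 at 1 d. At 6 d the genotypes parted. In rpn12a-236, 7 of 8 members were above 0 d (50.7% of all genes called, 24.0% higher and 26.7% lower), by 0.98 for HAB2 to 2.75 for HAI2. In WT, ABI1 (0.74) and HAI1 (1.13) were higher and ABI2 (-1.55), AHG3 (-0.71) and HAI2 (-1.20) were lower (50.0%, 23.8% higher and 26.2% lower). Taken in both directions, 5 of 8 members were called in WT at 6 d, near the share of all genes. In rpn12a-236 the other calls at 6 d were ABI1 at 2.35, ABI2 at 1.15, HAB1 at 1.77, AHG3 at 1.66 and HAI1 at 2.27, and in WT the members not called were HAB1 at -0.0087 and HAB2 at 0.48. The call of AHG3 in WT was lost without WT 6 d replicate 3 (adjusted p = 0.0103).

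The interaction of genotype and darkening tests whether the change since 0 d differed between rpn12a-236 and WT. All 4 interactions share the 0 d libraries, in which 7 members were lower in the mutant. A value above 0 means that the change was more positive in the mutant, whether WT rose or fell. At 6 d the interaction was called for 6 of 8 members, all above 0, with 21.4% of all genes called (10.8% above 0, 10.6% below). It was 3.95 (95% CI 3.36 to 4.54, adjusted p = 3.25e-09) for HAI2, 2.70 (adjusted p = 4.27e-06) for ABI2 and 2.37 (adjusted p = 2.33e-07) for AHG3. HAB1 had 1.78 (adjusted p = 3.51e-06), ABI1 1.61 (adjusted p = 9.21e-05) and HAI1 1.14 (adjusted p = 0.00189), and these 6 calls held without any single library. HAB2, which encodes the closest relative of HAB1, had 0.50 (95% CI -0.016 to 1.03, adjusted p = 0.134). At 6 h the interaction was called for 1 of 8 members (7.48% of all genes, 2.84% above 0 and 4.63% below), at 1 d for 2 (12.7%, 6.29% above and 6.44% below) and at 3 d for 2 (15.1%, 7.77% above and 7.35% below). At 6 h it was 1.00 (adjusted p = 0.00892) for HAB2, which was lost in 10 of the 12 fits that each left out one library, held without WT 6 h replicate 2 or rpn12a-236 0 d replicate 2, and reached a highest adjusted p of 0.0303 without WT 6 h replicate 1. It had an adjusted p of 0.0127 with the replicate block, 0.0105 without the filter, 0.0252 in a fit of all 42 libraries and 0.0114 with libraries centred on their medians. At 1 d it was 1.13 (adjusted p = 0.00109) for HAB1 and 1.11 (adjusted p = 0.00668) for HAI2. At 3 d it was 1.45 (adjusted p = 6.69e-04) for HAI2 and -1.06 (adjusted p = 0.00637) for ABI1. The HAI2 call at 1 d was lost in 9 and the ABI1 call at 3 d in 10 of 12 such fits, with the highest adjusted p at 0.0233 without rpn12a-236 0 d replicate 3 and 0.0222 without rpn12a-236 0 d replicate 2. ABI1 at 3 d was the 1 interaction call that went below 0. The interactions not called were ABI2 at 1.05, HAB1 at 0.88, AHG3 at 0.70, HAI1 at -0.23 and HAI2 at 0.89 at 6 h, ABI1 at -0.05, ABI2 at 0.83, HAB2 at 0.58, AHG3 at 0.65 and HAI1 at 0.44 at 1 d, and ABI2 at 0.075, HAB1 at 0.44, HAB2 at -0.27, AHG3 at 0.58 and HAI1 at -0.064 at 3 d.

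The step between 3 d and 6 d as IDLs was compared after its values had been seen, and its p-values are to be read with that. In rpn12a-236, 1 of 8 members was called higher at 6 d than at 3 d, with 3.86% of all genes called (1.74% higher, 2.12% lower). In WT, 6 of 8 were lower at 6 d than at 3 d and none was higher, with 14.3% of all genes called (6.87% higher, 7.42% lower). ABI1 in rpn12a-236 had 0.81, 1.59 and 0.92 at 6 d and 0.42, 0.75 and 0.26 at 3 d, 0.63 (adjusted p = 0.042). In WT it had 0.22, 0.25 and 0.18 at 6 d and 2.36, 2.24 and 2.15 at 3 d, -2.03 (adjusted p = 2.39e-07). Every WT library of ABI1 at 6 d lay below every one at 3 d, and the mutant libraries stood the other way round. ABI2 differed by 0.90 (adjusted p = 0.0246) in rpn12a-236 and -1.73 (adjusted p = 2.77e-05) in WT, and HAI2 by 0.84 (adjusted p = 0.0101) in rpn12a-236 and -1.66 (adjusted p = 3.68e-06) in WT. AHG3 differed by 0.36 (adjusted p = 0.202) in rpn12a-236 and -1.43 (adjusted p = 3.33e-06) in WT. HAB1 differed by 0.47 in rpn12a-236 and -0.86 in WT, and HAI1 by 0.42 in rpn12a-236. HAB2 was the exception in both genotypes, at 0.86 (adjusted p = 0.00365) in rpn12a-236 and 0.084 (adjusted p = 0.794) in WT. The difference between the genotypes in this step was called for ABI1, ABI2, HAB1, AHG3, HAI1 and HAI2 (8.40% of all genes called, 4.39% above 0), from 1.20 (adjusted p = 0.00293) for HAI1 to 2.66 (adjusted p = 1.63e-06) for ABI1, and not for HAB2, at 0.77 (adjusted p = 0.0372). The call of HAI1 in WT, -0.78, was lost without any one of its 6 libraries (0.0112 to 0.0144), and its interaction was lost without rpn12a-236 3 d replicate 3 (0.0105). The call of HAB2 in rpn12a-236 held without rpn12a-236 3 d replicate 2 or 6 d replicate 2 and was lost without any other of its libraries (0.0106 to 0.0312).

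**Figure D4:**
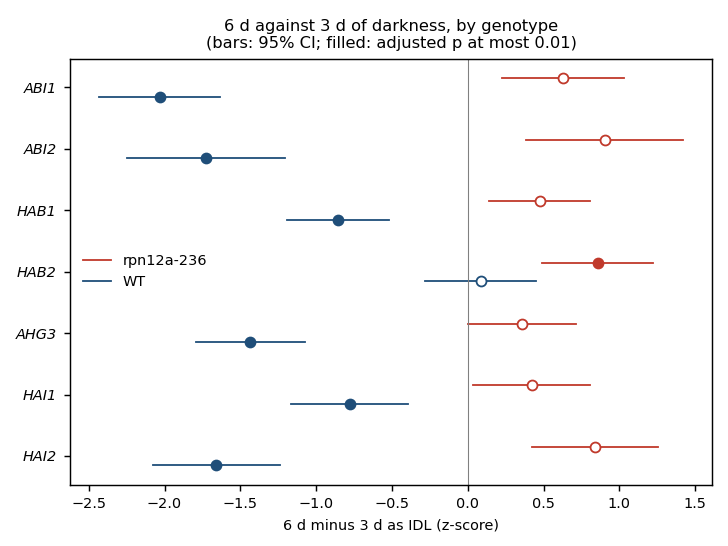
Difference between 6 d and 3 d as IDLs (x axis, z-score) for the 7 fully measured genes (y axis), in rpn12a-236 (red, upper of each pair) and WT (blue, lower), with 95% confidence intervals and filled points where the adjusted p was at most 0.01. For 6 genes the WT interval lies wholly below 0 and the mutant point above 0, and HAB2 is the exception.

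WT light leaves at later times were also compared with WT leaves at 0 d. At 6 h, cut in the afternoon, 5 of 9 members were lower than at 0 d and none was higher, with 23.7% of all genes called (10.3% higher, 13.4% lower). HAB1 had -1.30, -1.19 and -1.99 at 6 h and 0.74, 0.66 and 0.56 at 0 d, a difference of -2.15 (adjusted p = 4.03e-09). The other calls were ABI2 at -1.34, HAB2 at -1.25, AHG3 at -1.13 and HAI1 at -0.85, and the members not called were ABI1 at -0.42, AHG1 at 0.77 and HAI2 at -0.44, with HAI3 at its lowest value in all 6 libraries. Without WT light 6 h replicate 3 these differences were -1.90 for HAB1, -1.28 for ABI2, -0.84 for HAB2, -1.07 for AHG3 and -0.86 for HAI1, all called. At 1 d 2 members were lower than at 0 d, with 3.23% of all genes called (1.23% higher, 1.99% lower), HAI1 at -0.93 (adjusted p = 9.73e-04) and HAI2 at -0.79 (adjusted p = 0.00346). The median difference at 1 d was -0.51 over the 9 members and 0 over all genes. At 1 d 8 of 9 had an unadjusted p under 0.05, among them HAI3, which was higher. The share of all genes at that cut was not counted at 1 d, 3 d or 6 d. Counts of members at that cut are therefore not read as a result about the family. All members were compared with the same WT 0 d libraries. The members not called were ABI1 at -0.37, ABI2 at -0.51, HAB1 at -0.51, HAB2 at -0.77, AHG1 at 0.85, AHG3 at -0.38 and HAI3 at 2.01. At 3 d no member was called in limma (1.08% of all genes, 0.526% higher and 0.550% lower), while 2 had an unadjusted p under 0.05. The differences were ABI1 at 0.29, ABI2 at 0.011, HAB1 at 0.088, HAB2 at -0.36, AHG1 at 2.37, AHG3 at -0.16, HAI1 at -0.24, HAI2 at -0.05 and HAI3 at 1.53. Counts and medians over the 9 members include AHG1. It entered this fit only through light libraries after 0 d, so its tests against 0 d are not read. At 6 d, with 1.27% of all genes called (0.414% higher, 0.857% lower), the 1 call was HAI2 at -0.80 (adjusted p = 0.00649), and 6 members had an unadjusted p under 0.05, with a median of -0.60 over the 9 members and -0.026 over all genes. The members not called were ABI1 at -0.69, ABI2 at -0.67, HAB1 at -0.31, HAB2 at -0.59, AHG3 at -0.60 and HAI1 at -0.64, with AHG1 and HAI3 at their lowest value in all 6 libraries. The calls of HAI2 were lost without WT 0 d replicate 1 or 2 or WT light 1 d replicate 3 at 1 d (0.017 to 0.0321), and without any one of the 6 libraries at 6 d (0.012 to 0.0378). In fits on the 6 libraries of each contrast alone, the 1 call left among the 8 was HAB1 at 6 h.

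AHG1, which acts mainly in seeds, and HAI3 gave few usable values. AHG1 was above its lowest z-score of -0.34 in WT light leaves at 6 h (replicate 2, 1.97), 1 d (replicate 1, 2.21) and 3 d (replicate 1, 2.00, and replicate 2, 4.43) and in 1 rpn12a-236 library at 0 d (replicate 1, 2.06). It was at that value in all 24 IDL libraries. AHG1 entered the fit of WT libraries only through light libraries after 0 d, the ones in which it was above that value. Tests of IDLs against light leaves, and of later light leaves against 0 d, are therefore not read for AHG1. Its difference between WT IDLs and WT light leaves at 3 d was -2.37, and -1.17 without WT light 3 d replicate 2. HAI3 was above its lowest z-score of -0.65 in all 3 WT light libraries at 1 d, 2 at 3 d, in 2 WT IDLs at 3 d and 1 at 6 h, in 2 rpn12a-236 IDLs at 6 d, 1 each at 6 h and 1 d and in 1 rpn12a-236 library at 0 d. Between the genotypes HAI3 differed by -1.19 at 3 d to 1.32 at 6 d, with 95% confidence intervals that include 0 at all 5 times.

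Over the 14 conditions the order of the means differed between members. ABI1 was highest in WT IDLs at 3 d (2.25 ± 0.10, SD, n = 3 here and below), followed by WT IDLs at 1 d (1.12 ± 0.20) and rpn12a-236 IDLs at 6 d (1.11 ± 0.42), and lowest in rpn12a-236 at 0 d (-1.24 ± 0.25). WT IDLs at 3 d did not overlap with the next condition, while WT IDLs at 1 d and rpn12a-236 IDLs at 6 d overlapped. HAI1 had WT IDLs at 3 d (1.88 ± 0.018), rpn12a-236 IDLs at 6 d (1.43 ± 0.16) and WT IDLs at 6 d (1.10 ± 0.029) on top, with no overlap among them, and rpn12a-236 IDLs at 6 h (-1.52 ± 0.14) lowest. All 4 groups of WT light leaves after 0 d were in the lower 7 places for HAI1, as they were for ABI1. ABI2 had 4 conditions on top that overlapped with their neighbours: WT IDLs at 3 d (1.28 ± 0.20), WT light leaves at 3 d (1.11 ± 0.16) and at 0 d (1.10 ± 0.15) and rpn12a-236 IDLs at 6 d (1.09 ± 0.37). Its lowest were rpn12a-236 IDLs (-1.66 ± 0.22) and WT IDLs (-1.55 ± 0.18) at 6 h, which overlapped. AHG3 ran from 1.45 ± 0.042 in WT IDLs at 3 d to -2.06 ± 0.083 in rpn12a-236 IDLs at 6 h, and HAB1 from 1.50 ± 0.027 in WT IDLs at 3 d to -1.70 ± 0.19 in rpn12a-236 IDLs at 6 h. HAI2 was highest in rpn12a-236 IDLs at 6 d (1.51 ± 0.35), which overlapped with WT IDLs at 3 d (1.302 ± 0.13), and lowest in rpn12a-236 IDLs at 6 h (-1.96 ± 0.27). HAB2 had WT IDLs at 6 d (1.295 ± 0.20) and 3 d (1.21 ± 0.15) and rpn12a-236 IDLs at 6 d (1.16 ± 0.10) on top, all overlapping, and WT IDLs at 6 h (-1.79 ± 0.31) lowest. Of 13 neighbours in the order, 7 overlapped for HAB1, AHG3 and HAI1, 8 for ABI1, 9 for HAB2 and HAI2 and 11 for ABI2.

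**Figure D5:**
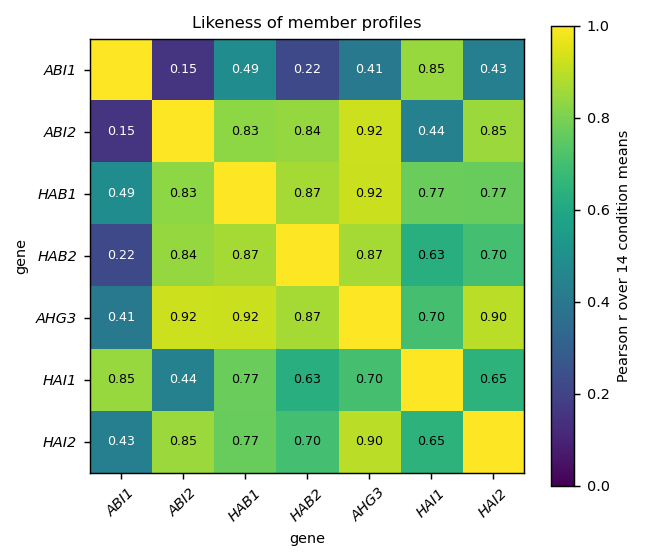
Pearson correlation of the 14 condition means between each pair of the 7 fully measured genes (x and y axes), with the value in each cell. ABI2, HAB1, HAB2, AHG3 and HAI2 are alike at 0.70 to 0.92, ABI1 is at 0.85 with HAI1 and at 0.15 to 0.49 with the others, and HAI1 lies between.

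The likeness of profiles was described by Pearson's r over the 14 condition means, which share libraries and normalization across genes. ABI2, HAB1, HAB2, AHG3 and HAI2 had 0.70 to 0.92 among themselves, highest for ABI2 with AHG3 and HAB1 with AHG3 (0.92 each). ABI1 had 0.85 with HAI1 and 0.15 to 0.49 with the others, lowest for ABI2. HAI1 stood between, with 0.77 for HAB1 and 0.70 for AHG3, as high as some pairs of those 5 genes, and 0.44 for ABI2. Among the 17535 other genes with no shared lowest value, AHG3 was the third most like ABI2, ABI2 and HAB1 were the fifth and sixth most like AHG3, and AHG3 was rank 5 for HAI2 and rank 9 for HAB1. HAI1 was rank 113 for ABI1, and ABI1 rank 179 for HAI1, while ABI2 was rank 7503 for ABI1. The gene most like AHG3 was AT5G40790 (0.97), followed by AFP1 (0.96), which encodes a protein that binds the bZIP factor ABI5, and AT1G69252 (0.93). ABI2 was most like WEB1 (0.93) and the NAC gene ATAF1 (0.93). HAB1 was most like ECT8 (0.96), AT5G61820 (0.94) and AT1G69252 (0.94), a gene that was also rank 3 for AHG3. HAB2 was most like MDAR4 (0.95), HSP70 (0.94) and SK1 (0.94). HAI1 was most like AT3G16990 (0.96), AT2G41190 (0.96) and AT5G35320 (0.96), ABI1 was most like AT1G01730 (0.93), AT3G19910 (0.92) and the zinc finger gene ZF2 (0.92), and HAI2 was most like AT3G03341 (0.92), CYP89A5 (0.91) and ATAF1 (0.90).

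The other parts of the ABA pathway were counted in the same fits, in which the share of all genes called between the genotypes was 17.2% before darkening, then 11.4% (6 h), 22.5% (1 d), 27.6% (3 d) and 35.1% (6 d). The share of receptors was near it at 3 d, and that of bZIP genes at 1 d and 3 d. Of 14 receptor genes 12 were in the data and 9 were tested. In rpn12a-236 against WT, 3 of the 9 receptors were higher and 1 lower at 0 d, where 7 PP2Cs were lower. PYL4 was higher by 1.56 (adjusted p = 1.57e-05), PYL6 by 1.82 (adjusted p = 7.05e-04), and PYL9 differed by -2.76 (adjusted p = 3.72e-08). At 6 d, where 5 PP2Cs were higher, 6 receptors were lower and 1 higher, with PYL5 at -2.85 (adjusted p = 1.87e-07), PYL1 at -2.59 (adjusted p = 4.15e-09) and PYL4 at -1.47 (adjusted p = 9.61e-06). At 3 d 3 receptors were lower and 0 higher, PYL6 at -1.76, PYL9 at -1.12 and PYL5 at -1.20. At 6 h PYR1 was higher (1.89) and PYL7 lower (-1.32), and at 1 d none was called in limma, while 3 had an unadjusted p under 0.05. Of the 3 ABA-activated SnRK2 kinases, SnRK2.6 (OST1), the kinase of stomatal closure, was lower in rpn12a-236 at 0 d, with a difference of -1.86 (adjusted p = 4.88e-04). SnRK2.3 was higher at 1 d (0.65) and at 3 d (0.69). No other call of these kinases was made in limma, with 0 of 3 at an unadjusted p under 0.05 at 6 h and 1 of 3 at 6 d.

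Of 6 ABA-response bZIP genes, 4 were lower in rpn12a-236 at 0 d, with ABF2 at -2.03 (adjusted p = 5.99e-08), ABF4 at -1.37 (adjusted p = 3.81e-06) and ABF3 at -0.78 (adjusted p = 0.00304). At 6 h 3 were lower, at 1 d ABI5 (-1.02), at 3 d ABF2 (-1.29) and ABI5 (-1.15), and none was higher at these times. At 6 d 2 were higher, ABF4 (1.05) and ABF3 (0.96), and ABI5 was lower (-1.01). All calls of bZIP genes up to 3 d were thus lower in the mutant, and at 6 d those of ABF3 and ABF4 were higher. Of 15 ABA-responsive genes, 2 were higher and 1 lower in rpn12a-236 at 0 d, 9 were lower at 6 h, 4 were lower at 1 d, 2 were higher and 5 lower at 3 d, and 8 were higher and 2 lower at 6 d. At 0 d and 1 d this was near the share of all genes called, 17.2% and 22.5%. At 6 h, 3 d and 6 d it was above the 11.4%, 27.6% and 35.1%. At 0 d COR47 (1.10) and RD26 (0.71) were higher and TSPO (-0.74) was lower. At 6 h the cold- and dehydration-induced COR15A (-1.84) and KIN2 (-2.12) and the NAC gene NAC019 (-1.47) were lower. At 3 d NAC019 (-3.08), RD20 (-1.95) and RD26 (-0.78) were lower. At 6 d the homeodomain gene HB12 (2.41), the NAC gene RD26 (1.46) and RD29B (1.82) were higher.

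The last list held 6 factors that act on clade A PP2C proteins or genes. NAP, a senescence NAC factor that activates HAI1, was lower in rpn12a-236 by limma's test at 0 d, with a difference of -0.90 (adjusted p = 1.93e-04), at 1 d with -0.56 (adjusted p = 0.00983) and at 3 d with -1.50 (adjusted p = 1.41e-07). It was also lower at 6 d, named here after its values had been seen, with -0.67 (adjusted p = 0.00144). HAI1 was not called between the genotypes at 6 d, at 0.33 (adjusted p = 0.162 in limma). A part of NAP in the values of the PP2Cs was not tested. The mean of NAP at 3 d was 0.058 in rpn12a-236 IDLs and 1.56 in WT IDLs, and at 6 d it was 0.64 in rpn12a-236 IDLs and 1.31 in WT IDLs. RGLG5, a ubiquitin ligase that targets AHG3 for degradation, was lower in rpn12a-236 at 1 d (-1.10), 3 d (-1.28) and 6 d (-1.46), while RGLG1, which acts on the same protein, was higher at 3 d (0.59). PUB12, a ligase of ABI1, was lower at 6 h (-2.25) and 6 d (-2.45), and PUB13 was higher at 0 d (1.12). EAR1, a protein that binds clade A PP2Cs and raises their activity, was higher at 6 d (1.60). In WT IDLs against WT light leaves, NAP was higher at all 4 times, by 1.80 at 6 d to 2.47 at 6 h.

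In WT IDLs against WT light leaves, where the share of all genes called was 36.5% (6 h), 40.9% (1 d), 45.5% (3 d) and 47.2% (6 d), most calls among the kinases and the bZIP genes were higher in IDLs, and receptors were called in both directions. SnRK2.3, a kinase that the clade A PP2Cs inactivate, was higher in IDLs at all 4 times, by 0.85 at 6 h and by 1.50, 1.95 and 1.91 after 1 d, 3 d and 6 d. SnRK2.2 was higher at 1 d (2.01), 3 d (1.67) and 6 d (2.23), and SnRK2.6 was lower at 6 h (-1.74). Of 6 bZIP genes, 3 were higher and 1 lower at 6 h, 5 were higher and 0 lower at 1 d, 4 and 0 at 3 d, and 3 and 1 at 6 d, with ABF1 at 1.83 and ABI5 at 1.66 at 3 d. Of 9 receptors, 2 were higher and 2 lower at 6 h, 3 and 2 at 1 d, 4 and 4 at 3 d, and 4 and 1 at 6 d, which at 6 h and 6 d was near the share of all genes. PYL8 was higher in IDLs at all 4 times, by 1.25 at 6 h to 2.37 at 1 d, and PYL4 was lower at 1 d (-2.21) and 3 d (-2.17). Of 15 ABA-responsive genes, 4 were higher and 6 lower at 6 h, 10 and 1 at 1 d, 10 and 2 at 3 d, and 9 and 3 at 6 d, with RD26 at 2.58 and HB7 at 2.31 at 3 d. Of the 9 PP2Cs, 1 was higher and 4 lower at 6 h, 2 and 4 at 1 d, 5 and 0 at 3 d, and 3 and 1 at 6 d. Counted in both directions, this was near the share of all genes at 3 d (45.5%) and 6 d (47.2%).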

How the data were processed

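RNA-seq was made from pooled leaf blades of rpn12a-236 and WT Col-0. Per the labels and the study's methods, the authors checked reads with FastQC 0.11.4, trimmed them with Trimmomatic, estimated transcript abundance on TAIR10 with kallisto 0.43.0, summed it per gene, applied the variance-stabilizing transformation of DESeq2, subtracted the minimum and scaled each gene. The deposited values are therefore scores (z-scores per gene over 42 libraries). They hold no counts, so the depth of the libraries is unknown here and no counting interval can be given. Scaling gives genes of small and large change the same spread, so a z-score difference says nothing of fold. The 42 value columns each matched 1 sample by name, with 0 left over.

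Each library is 1 of 3 replicates of its condition, from different pools of plants, and p-values measure the spread between these pools. Genes with at least 3 libraries of the fit above their shared lowest value were fitted in limma 3.58.1 (R 4.3.3), with a mean per condition and moderated variances, over 30 libraries (rpn12a-236 and WT at 0 d and as IDLs) or 27 WT libraries, and called at an adjusted p of at most 0.01. Steps were tested on simulated data. Replicate numbers were not treated as pairs. Alternatives changed the libraries fitted, the filter, the threshold, the moderation, the centring and the replicate block, and left out each library in turn and each replicate number. The members are named in every comparison, AHG1 and HAI3 mostly as a summary since few of their libraries had usable values, and of the other lists at most the 3 genes with the smallest adjusted p, exceptions being named as such. The most similar genes are the 3 with the highest Pearson's r over condition means, among genes with no shared lowest value. The members and lists were chosen with earlier results of these data known. Tables and figures were made with Python 3.11.15, NumPy 2.4.6, pandas 2.3.3 and matplotlib 3.10.9. Gene positions and promoter letters came from RefSeq's TAIR10.1 annotation and genome, and expression was read by locus identifier only.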

Additional observations from a re-analysis of the deposited data

Results flagged for a closer look

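By the interaction term in limma, the change since 0 d was called different between rpn12a-236 and WT in 11 results on the PP2Cs. Each is given as the change in rpn12a-236 less the change in WT, in z-score units. At 6 d these were 3.95 for HAI2, 2.70 for ABI2, 2.37 for AHG3, 1.78 for HAB1, 1.61 for ABI1 and 1.14 for HAI1. At 3 d they were 1.45 for HAI2 and -1.06 for ABI1, at 1 d 1.13 for HAB1 and 1.11 for HAI2, and at 6 h 1.00 for HAB2. These interactions share the 0 d libraries of both genotypes, and at 6 h the hour of harvest differs from that at 0 d in both. For each time 8 members were tested, and the share of all genes called rose from 7.48% (6 h) to 21.4% (6 d). Leaving out 1 library ended the call of HAB2 (6 h) in 10 of 12 fits, of ABI1 (3 d) in 10 and of HAI2 (1 d) in 9. The remaining interaction calls held without any single library. The HAB2 call was also lost with the replicate block, without the low-value filter, with all 42 libraries and with libraries centred on their medians.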

How the results depend on the processing

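No called difference of a member changed sign under an alternative, while some small uncalled ones did, such as HAB1 between WT IDLs and light leaves at 6 h, at 0.14 and from -0.11 to 0.29 when 1 library of the contrast was left out. Counts of PP2C calls by limma moved as follows. Fitted on the libraries of each contrast alone, rpn12a-236 against WT gave 7 calls in place of 21, and later WT light leaves against 0 d gave 1 in place of 8. At an adjusted p of at most 0.001 the interaction gave 6 calls in place of 11, and at 0.05 later WT light leaves gave 15. Leaving out 1 library, or 1 replicate number in all conditions, gave 7 to 23 calls for rpn12a-236 against WT, 13 to 22 (main count 20) for WT IDLs against WT light leaves, 17 to 21 (20) for WT IDLs against 0 d, 19 to 23 (23) for rpn12a-236 IDLs against 0 d, 4 to 12 (11) for the interaction, 3 to 12 (8) for later WT light leaves and 7 to 14 (13) for 6 d against 3 d, a comparison chosen after the data had been seen. The lowest counts came from leaving out a replicate number, which removes 1 of 3 libraries from every condition. Of 116 calls of members, 93 held without each single library of their contrast. Same-numbered libraries deviated from their group means with correlations of -0.152 to 0.237, over 0.1 in 8 of 69 pairs, so the numbers were not taken as pairs. With the replicate block the counts were 19 for rpn12a-236 against WT, 19 for WT IDLs against light leaves, 20 and 23 for WT and rpn12a-236 IDLs against 0 d, 10 for the interaction, 7 for later light leaves and 13 for 6 d against 3 d. The block ended the calls of HAB2 at 0 d and HAB1 at 6 d between genotypes, HAB2 at 6 h in the interaction, HAI2 at 3 d between IDLs and light leaves and HAI2 at 6 d in light leaves. Depth is unknown, and AHG1 and HAI3 were mostly at a lowest value.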
